A study of Mus musculus with 8 samples.

Results

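The genes described here encode chaperones and folding enzymes of the endoplasmic reticulum (ER), together with a transcription factor of the unfolded protein response and a protein of ER-associated degradation. They were chosen by name as *Hspa5*, *Hsp90b1*, *Calr*, *Sdf2l1*, *Dnajb9*, *Pdia3*, *Pdia4*, *Pdia6*, *Herpud1* and *Xbp1*, without reference to a threshold on any measured value. All 10 were found by their GENCODE M21 symbols among the 54838 Ensembl genes of the count tables, and all 10 passed the filter on low counts that left 12405 genes for testing. RNA-seq was performed on *iMLL-AF9* cells, mouse leukemic cells of the C57BL/6 background in which doxycycline switches on the human *MLL-AF9* fusion oncogene. The labels give bone marrow as the tissue, leukaemic stem cells as the cell type and WT as the genotype in both groups, whereas the description of the whole data set calls the cells preleukaemic. The 4 samples of the treated group received IOX5, an inhibitor of the prolyl hydroxylases (PHDs) that mark the α-subunits of hypoxia-inducible factor (HIF) for degradation, and the 4 control samples received the solvent DMSO. Samples were numbered 1 to 4 in each group. Neither the concentration of IOX5 nor the time of exposure is given for the sequenced samples, and nothing in the labels says whether the numbers stand for separate animals or cultures, so p-values measure the spread between these samples, which may be technical.

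Proteins destined for the membrane or for secretion fold in the ER, where HSPA5 (BiP) and HSP90B1 (GRP94) bind unfolded chains, calreticulin retains glycoproteins until they fold, and protein disulfide isomerases form and rearrange disulfide bonds. When unfolded chains accumulate, the sensors IRE1 (*Ern1*), PERK (*Eif2ak3*) and ATF6 signal to the nucleus. IRE1 splices *Xbp1* mRNA into the form that encodes the active factor, ATF6 is cleaved to release a transcription factor, and PERK slows translation while favoring that of ATF4, and these factors raise the genes of chaperones, of degradation and of amino acid supply. Plasma cells are the blood cells best known for very high levels of this machinery. Counts per gene do not separate the spliced from the unspliced form of *Xbp1*, so its values here are for both forms together.

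The promoters of several of these genes hold an element named for the response to ER stress. The genes were chosen by name for ER folding and that response, so the share that carries it is a description and not an independent result. The ER stress response element (ERSE), a paired motif bound by NF-Y and by ATF6 or XBP1, was searched as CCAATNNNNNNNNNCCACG on both strands of RefSeq promoters that reach from 250 bases before to 50 bases after the start site (GRCm38.p6). All 10 genes had a promoter in that table. The exact motif lay in the promoters of 4 of the 10 genes, *Hspa5*, *Hsp90b1*, *Calr* and *Pdia6*, and in 39 of 32851 promoters overall (0.119%). The related ERSE-II, searched as ATTGGNCCACG, lay in the promoter of *Herpud1* and in 12 promoters overall (0.0365%). The exact letters TGACGTGG, the core of the unfolded protein response element, were in no promoter of the 10 genes and in 0.676% of all promoters. The core ACGTG of the HIF response element was in 5 of the 10, in *Hspa5*, *Calr*, *Pdia6*, *Herpud1* and *Dnajb9*, but it is short and was in 19.6% of all promoters. A match is a description of the letters and does not show that a factor binds there.

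The stretches that hold the ERSE and ERSE-II matches, and the ACGTG of *Dnajb9*, are shown 5′ to 3′ on the strand of the gene. The ACGTG matches of *Hspa5*, *Calr* and *Pdia6* lie outside the printed stretches, and that of *Herpud1* is not marked as such. Whether a motif bears on a difference between the groups was not tested. Capitals mark the fixed letters of the ERSE or ERSE-II (reading CGTGG and then ATTGG where the motif lies on the opposite strand), and in *Dnajb9* the ACGTG core.
Hspa5: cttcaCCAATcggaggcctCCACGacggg
Hsp90b1, distal: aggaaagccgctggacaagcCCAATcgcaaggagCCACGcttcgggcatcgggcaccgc
Hsp90b1, proximal: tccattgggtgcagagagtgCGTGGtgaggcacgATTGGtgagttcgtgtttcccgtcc
Calr: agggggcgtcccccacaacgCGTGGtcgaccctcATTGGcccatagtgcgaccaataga
Pdia6: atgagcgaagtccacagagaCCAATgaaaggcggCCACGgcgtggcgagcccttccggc
Herpud1: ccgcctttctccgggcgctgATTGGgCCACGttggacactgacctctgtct
Dnajb9: tttccACGTGcgcgt

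The stretch of *Hspa5* is chr2:34772020-34772048 on the plus strand, and its motif begins at position -65 from the RefSeq start site, where -1 is the last base before the start. *Hsp90b1* carries 2 matches on the minus strand, in chr10:86705618-86705676 with the motif beginning at -212 and in chr10:86705513-86705571 with the motif beginning at -107 in the opposite orientation. The stretch of *Calr* is chr8:84847055-84847113 on the minus strand (motif from -162, opposite orientation), and that of *Pdia6* is chr12:17266471-17266529 on the plus strand (motif from -98). The ERSE-II of *Herpud1* lies in chr8:94386357-94386407 on the plus strand and begins at -52. An ACGTG on its opposite strand, from -45 to -41, shares letters with it. The ACGTG of *Dnajb9* is at -106 in chr12:44210165-44210179 on the minus strand, and a second match on the opposite strand overlaps it. In GENCODE M21 a transcript of *Hspa5* and a transcript of *Dnajb9* begin upstream of the RefSeq start, so these 2 stretches lie within an annotated 5′ untranslated exon, whereas the others overlap no annotated exon.

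**Figure D1:**
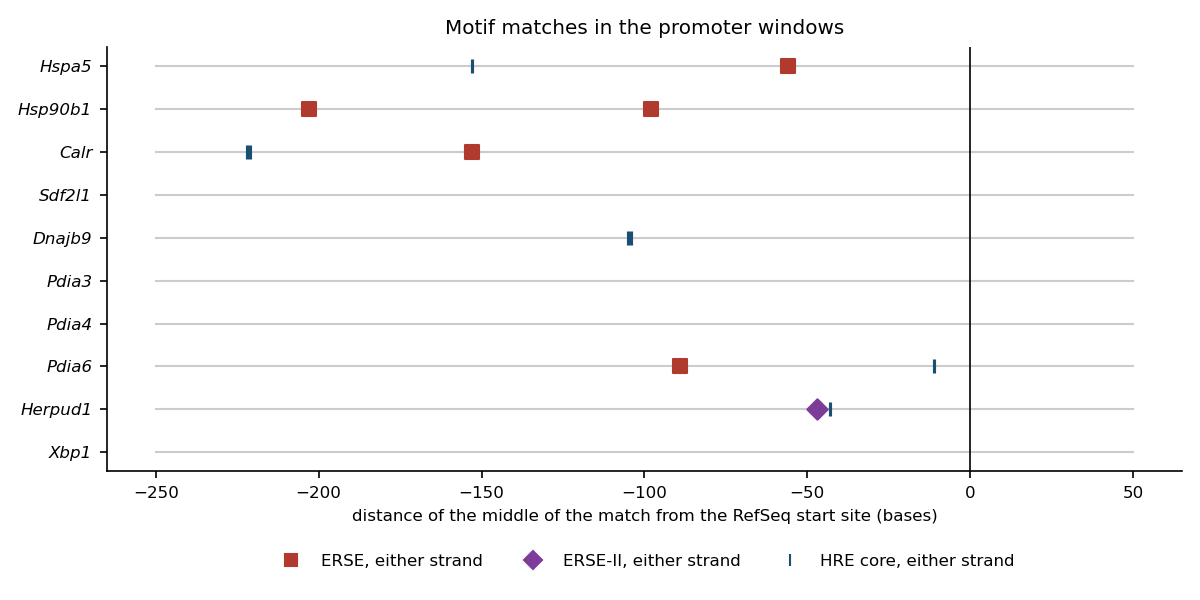
Position of each exact motif match in the promoter windows of the 10 genes, as the distance in bases of the middle of the match from the RefSeq start site (vertical line at 0). Squares are ERSE, the diamond is ERSE-II and ticks are the ACGTG core, on either strand; *Hsp90b1* has 2 ERSE matches, and *Sdf2l1*, *Pdia3*, *Pdia4* and *Xbp1* have no match of these 3 motifs.

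The treatment was checked first. All 10 genes of a list of HIF targets were higher with IOX5, with log2 fold changes from 0.38 (*Ldha*, lactate dehydrogenase A) to 1.38 (*Ankrd37*), and 6 of the 10 were called by edgeR at a Benjamini-Hochberg adjusted p under 0.05, among 2.02% of all genes tested. Of 10 myeloid and leukemic markers, all were detected, among them *Mpo* (myeloperoxidase) at a mean of 2195 CPM (counts scaled to the library total, with TMM factors) in DMSO and *Hoxa9* at 250.2 CPM. *Mpo* differed widely between replicates, at 1339, 984, 3380 and 3077 CPM in DMSO replicates 1 to 4. Plasma cell and B cell markers were nearly absent: 8 of 11 were below 1 CPM in every sample, *Ms4a1*, *Mzb1* and *Igkc* had no read, and *Ighm*, *Sdc1* and *Irf4* gave nearly all of the summed 44.6 to 89.6 CPM. In 11 macrophage markers the sum was 167 to 230 CPM in the DMSO samples and 253 to 567 CPM in the IOX5 samples. In 12 mast cell and basophil markers the sum was 188 to 725 and 330 to 1138 CPM, in 11 granulocyte markers 3532 to 4370 and 3964 to 5145 CPM, and in 10 erythroid markers 650 to 899 and 662 to 928 CPM, nearly all of it from the transferrin receptor gene *Tfrc* (means of 767.1 and 768.9 CPM), which other dividing cells also express. T cell markers summed to at most 8.45 CPM, with *Cd3g*, *Cd4*, *Cd8a*, *Trbc1* and *Trbc2* at 0, and stromal and endothelial markers to at most 223 CPM, nearly all from *Pecam1*, which myeloid cells also express. The macrophage sums did not overlap between the groups. With the replicate block, edgeR called higher with IOX5 all 8 mast cell and basophil markers tested (median log2 fold change 0.71), 4 of 8 macrophage markers (0.64), 7 of 11 granulocyte markers (0.35), 5 of 10 myeloid and leukemic markers (0.26) and 3 of 7 erythroid markers, *Gata1*, *Hbb-bs* (means of 6.05 and 12.1 CPM) and *Hbb-bt*. Of all genes tested, 11.2% were called higher with the block. Without the block edgeR called none of these markers, with 4 macrophage markers and 1 granulocyte marker at an unadjusted p under 0.05, and DESeq2 called 3 and 1. Of all genes, 20.2% had an unadjusted p under 0.05 by edgeR and 8.79% were called by DESeq2, in either direction. The part of these markers in the values below was not tested. In bulk RNA, fewer cells with a transcript and less transcript per cell cannot be told apart.

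The 10 genes were abundant transcripts in these cells and together took 0.905% ± 0.00593 (SD, n = 4) of all gene reads in DMSO and 0.885% ± 0.0613 (n = 4) in IOX5. The IOX5 samples spread more widely, from 0.805% in replicate 2 to 0.935% in replicate 1, and enclosed the narrow DMSO range of 0.896% to 0.909%. Compared per kilobase of annotated exon, *Calr* was the most abundant, at 1017 ± 67.0 CPM per kb in DMSO. *Hspa5* (425 ± 23.9) and *Hsp90b1* (408 ± 25.3) followed, and their DMSO values overlapped. *Pdia3* came next at 316 ± 14.6, then *Sdf2l1* at 217 ± 32.0, *Pdia6* at 178 ± 8.06, *Pdia4* at 126 ± 8.82 and *Xbp1* at 123 ± 19.1 CPM per kb, with *Pdia4* and *Xbp1* overlapping each other. *Herpud1* (49.7 ± 4.10) and *Dnajb9* (9.46 ± 0.828) were the lowest. The DMSO values of the other neighbors in this order did not overlap.

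**Figure D2:**
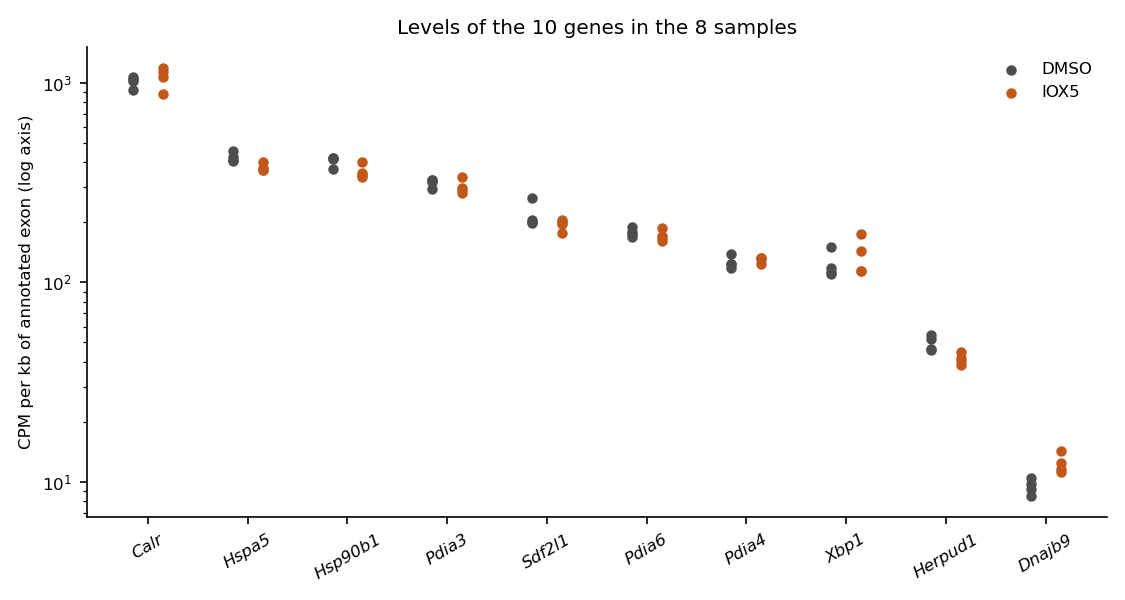
Level of each of the 10 genes in CPM per kb of annotated exon, on a log axis, with 1 point per sample (gray, DMSO; orange, IOX5). *Calr* lies highest at a DMSO mean of 1017 and *Dnajb9* lowest at 9.46, and the order is set by gene far more than by treatment.

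In the comparison of IOX5 with DMSO, none of the 10 genes passed an adjusted p under 0.05 by edgeR's quasi-likelihood test over all 12405 genes. Of all genes, 2.02% passed it, so none among 10 is near that share. At an unadjusted p under 0.05, 4 of the 10 did (*Hspa5*, *Hsp90b1*, *Herpud1* and *Dnajb9*), against 20.2% of all genes. With the replicate number as a block, *Dnajb9* rose and *Herpud1* fell, so 1 of the 10 was called higher and 1 lower, against 11.2% of all genes called higher and 9.43% called lower. DESeq2 without a block called the same 2 genes (8.79% of all genes in either direction), as did limma's voom with sample weights (8.35%). With the block, 1 gene in 10 in each direction is near the shares of all genes. The median log2 fold change of the 10 was -0.06, with 4 above and 6 below 0, and the median of all genes tested was 0.02.

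Among the chaperones of the ER lumen, *Hspa5*, the central ER HSP70, was at 1714, 1941, 1797 and 1741 CPM in DMSO replicates 1 to 4 and at 1580, 1554, 1552 and 1692 CPM in the IOX5 replicates. Every IOX5 sample lay below every DMSO sample, an order found in 8.3% of all genes and, among the 10, also in *Herpud1*. The log2 fold change was -0.17 (95% interval -0.31 to -0.04), with an adjusted p of 0.158 by edgeR, 0.0951 with the block and 0.0582 by DESeq2. *Hsp90b1*, the HSP90 of the ER, was at 1492, 1704, 1681 and 1700 CPM in DMSO and 1398, 1358, 1421 and 1626 CPM in IOX5. The groups overlapped because DMSO replicate 1 was low and IOX5 replicate 4 was high. Its log2 fold change of -0.18 (-0.35 to -0.01) was near that of *Hspa5*, with an adjusted p of 0.223 by edgeR and 0.0799 with the block. An antisense transcript, 1810014B01Rik, overlaps 415 bases of its exons, but it received 1009 reads over the 8 samples against 155404 for *Hsp90b1*.

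*Calr*, calreticulin, was at 3022, 2650, 2957 and 3084 CPM in DMSO and 3415, 2541, 3089 and 3267 CPM in IOX5. Replicate 2 was the lowest of both groups, and the IOX5 range enclosed the DMSO range. The log2 fold change was 0.07 (-0.15 to 0.29; edgeR adjusted p = 0.722). *Calr* has 1 named pseudogene, *Calr-ps*, and how reads that fit both were counted is not given. *Sdf2l1*, which keeps HSPA5 clients from aggregating together with DnaJ cochaperones, was at 227, 294, 223 and 220 CPM in DMSO and 217, 223, 195 and 227 CPM in IOX5. A single DMSO sample, replicate 2, stood above the other 7. The log2 fold change of -0.16 (-0.39 to 0.07; edgeR adjusted p = 0.431) shrank to -0.05 without that sample.

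*Dnajb9* (ERdj4), a DnaJ cochaperone that directs HSPA5 to IRE1 and to proteins for degradation, had the largest change of the 10. It was at 23.4, 21.6, 26.6 and 24.9 CPM in DMSO and 31.5, 28.5, 36.3 and 29.7 CPM in IOX5. Every IOX5 sample lay above every DMSO sample, an order found in 5.98% of all genes and in no other of the 10. The log2 fold change was 0.39 (0.15 to 0.62), with an adjusted p of 0.0883 by edgeR. The adjusted p was 0.00607 with the block, 0.0184 by DESeq2 and 0.0330 by voom. At an adjusted p under 0.1 without the block, *Dnajb9* was the only one of the 10 called, against 6.59% of all genes.

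The 3 protein disulfide isomerases differed little between the groups. *Pdia3* (ERp57), which works with calreticulin on glycoproteins, was at 925 to 1023 CPM in DMSO and 884 to 1056 CPM in IOX5, with a log2 fold change of -0.06 (-0.22 to 0.09; edgeR adjusted p = 0.656). *Pdia4* (ERp72) was at 284 to 333 and 295 to 320 CPM, with 0.04 (-0.10 to 0.19; edgeR adjusted p = 0.738). *Pdia6* (P5) was at 634 to 707 and 607 to 700 CPM, with -0.05 (-0.19 to 0.09; edgeR adjusted p = 0.700). The groups overlapped in all 3, and the intervals bound any difference at about 0.22 on the log2 scale in either direction.

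*Herpud1*, a membrane protein that assembles the degradation complex of the ER, was at 107, 127, 121 and 108 CPM in DMSO and 90.3, 104.5, 93.7 and 97.7 CPM in IOX5. The groups did not overlap. The log2 fold change was -0.26 (-0.44 to -0.09), with an adjusted p of 0.107 by edgeR, 0.0124 with the block, 0.0387 by DESeq2 and 0.0465 by voom. *Xbp1*, the transcription factor of the IRE1 branch, was at 491, 385, 359 and 364 CPM in DMSO and 568, 466, 372 and 369 CPM in IOX5. Its level followed the replicate number more than the treatment: replicate 1 was the highest and replicate 2 the next in both groups. The log2 fold change was 0.15 (-0.21 to 0.51; edgeR adjusted p = 0.640), and with the block 0.14 (-0.01 to 0.28; adjusted p = 0.159 by edgeR). Without IOX5 replicate 1 it was 0.01, and without DMSO replicate 1 it was 0.26.

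**Figure D3:**
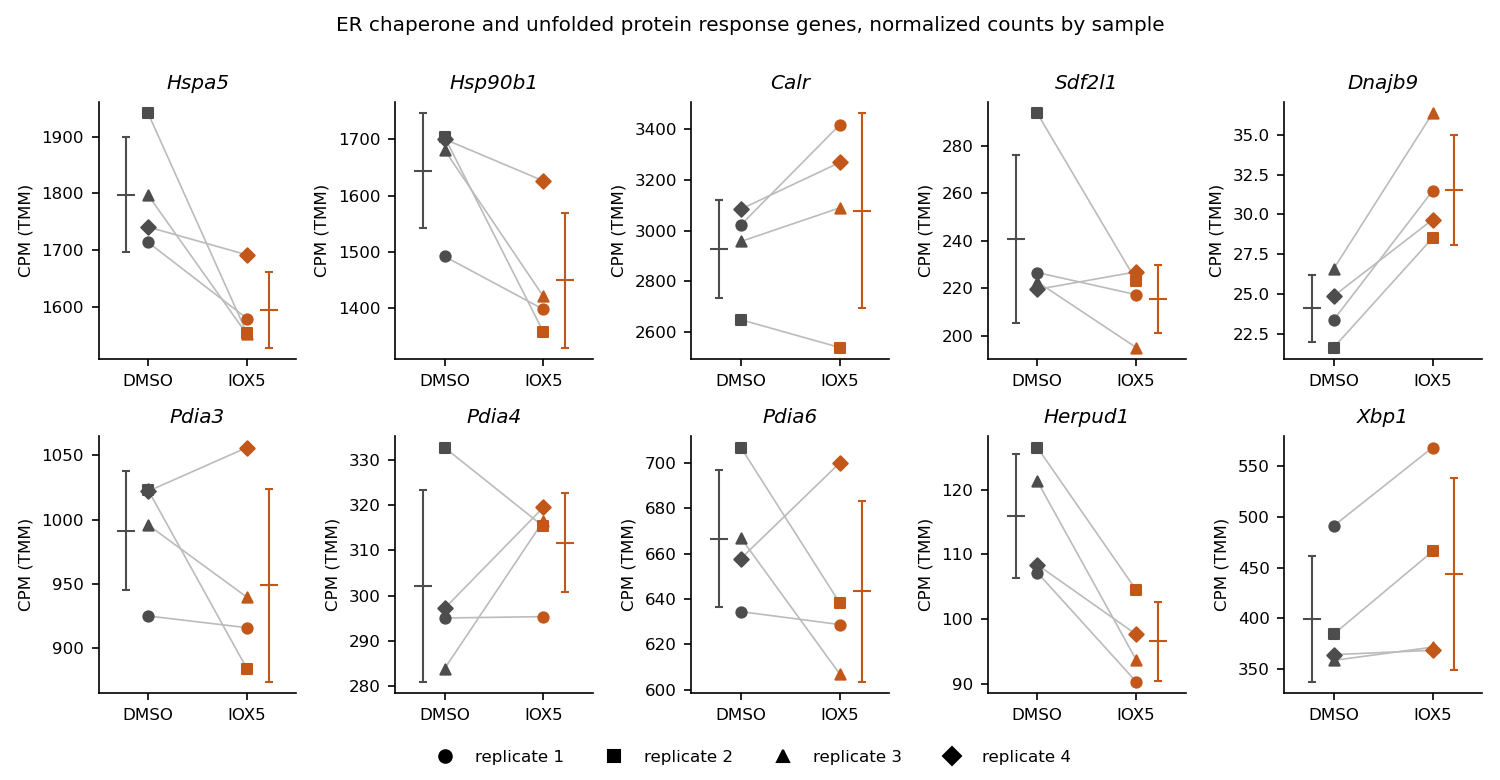
Normalized counts (CPM, TMM) of the 10 genes in the 8 samples, each panel on its own axis, which does not start at 0; gray lines join samples with the same replicate number, and bars to the side give the mean and SD of each group (n = 4). The groups are apart in *Hspa5*, *Herpud1* (IOX5 lower) and *Dnajb9* (IOX5 higher) and overlap in the other 7.

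Samples with the same number were also compared directly, since they deviated together from their group means over all genes, although numbers 3 and 4 were not told apart in this way. *Dnajb9* was higher with IOX5 within all 4 numbers, by 0.43, 0.40, 0.45 and 0.25 on the log2 CPM scale for numbers 1 to 4. *Xbp1* was the other gene higher in all 4, by 0.21, 0.28, 0.05 and 0.02, and the same held for 21.3% of all genes. The 4 differences of *Xbp1* had an SD of 0.12. For unpaired samples it would be 0.36, from the SD of 0.26 of its log2 CPM among samples of a group. *Herpud1* was lower within all 4 numbers, by -0.25, -0.28, -0.37 and -0.15, as were *Hspa5*, with -0.12, -0.32, -0.21 and -0.04, and *Hsp90b1*, with -0.09, -0.33, -0.24 and -0.06. These 3 of the 10 stand beside 19.8% of all genes that were lower in all 4 numbers. The differences of *Hspa5* and *Hsp90b1* ran in the same order, widest in number 2 and narrowest in number 4. *Sdf2l1* (-0.06, -0.39, -0.19 and 0.05) and *Pdia3* (-0.01, -0.21, -0.08 and 0.05) also had their lowest value in number 2 and changed sign in number 4. In *Calr*, *Pdia4* and *Pdia6* the sign differed between numbers as well.

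The 2 calls made with the block were not kept in every fit that left out 1 number. How many of all genes were called in these fits was not counted. The lost calls therefore cannot be set beside a general loss with fewer samples. Without number 3, no gene of the 10 was called (*Dnajb9*, adjusted p = 0.0628; *Herpud1*, 0.102, both by edgeR with the block), and without number 1 only *Dnajb9* was called. The fold changes themselves moved little, from 0.35 to 0.44 for *Dnajb9* and from -0.29 to -0.24 for *Herpud1* over the 4 fits.

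**Figure D4:**
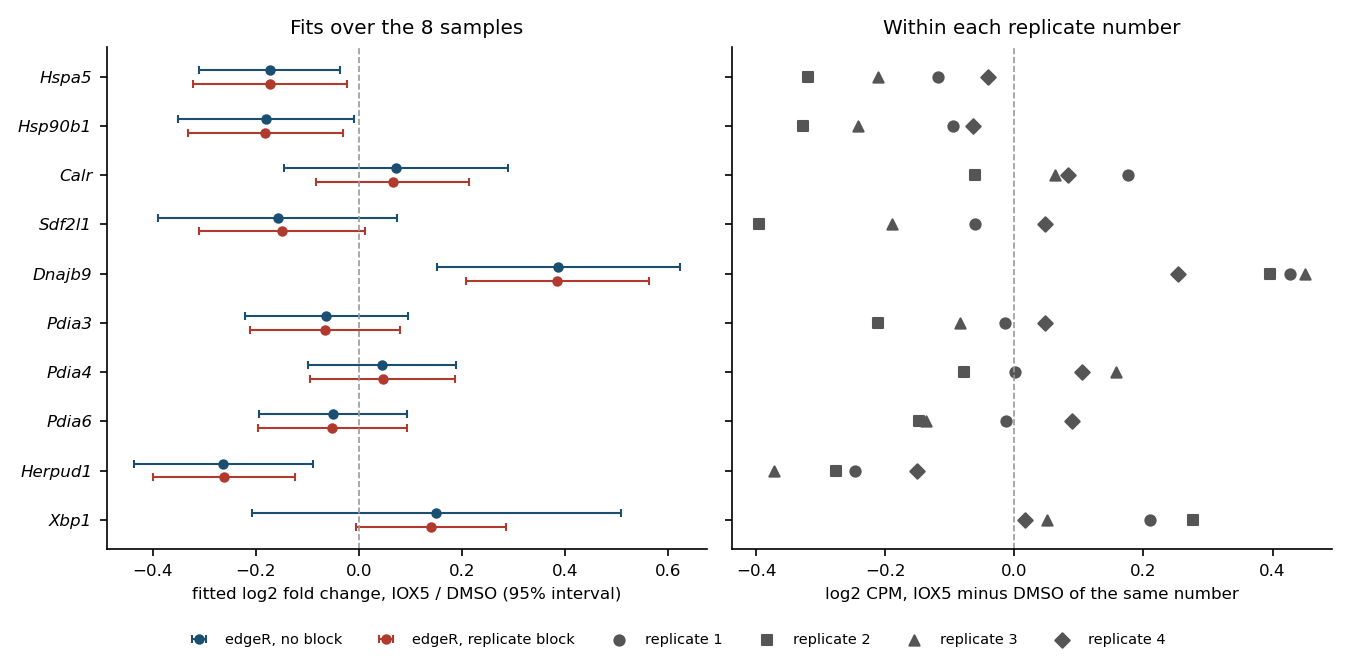
Left, log2 fold change of IOX5 over DMSO with its 95% interval for each of the 10 genes by edgeR without (blue) and with (red) the replicate block; right, the difference in log2 CPM within each replicate number. *Dnajb9* (0.39) and *Herpud1* (-0.26) lie farthest from 0, and in both all 4 numbers fall on the same side.

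Around these genes, 7 lists written from general knowledge covered the rest of the pathway with 135 genes, of which 129 were tested. The lists were chosen with earlier results of these data known, so their counts are a description. Without the block edgeR called 1 higher and 2 lower, against 2.02% of all genes in either direction. With the block it called 7 higher and 19 lower, among the 11.2% and 9.43% of all genes given above. Without a block DESeq2 called 6 higher and 12 lower (8.79% of all genes in either direction), and voom 2 higher and 11 lower (8.35%). Of the 129, 19 had every IOX5 sample below every DMSO sample and 7 the reverse order, against 8.3% and 5.98% of all genes. At an unadjusted p under 0.05 by edgeR without the block were 33 of the 129, against 20.2% of all genes. These were 1 sensor, 8 chaperones, 3 oxidoreductases, 6 genes of degradation, 6 of protein entry, 4 of N-glycan transfer and 5 of the ATF4 and CHOP list. The median log2 fold change of the 129 was -0.02.

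Of 7 sensors and proteases tested, edgeR called none without the block and 1 lower with it, and DESeq2 and voom called the same gene without a block. This was *Atf6*, the sensor that becomes a transcription factor, at 160, 179, 168 and 157 CPM in DMSO and 130, 143, 140 and 124 CPM in IOX5. The groups were apart, and the log2 fold change was -0.31 (edgeR adjusted p = 0.0557, and 0.00397 with the block; DESeq2, 0.00233; voom, 0.0266). Its paralog *Atf6b* was at -0.13 (edgeR adjusted p = 0.417). *Ern1* (0.06, SE 0.11) and *Eif2ak3* (0.08, SE 0.11), the genes of IRE1 and PERK, had adjusted p of 0.795 and 0.732 by edgeR. The median of the list was -0.05.

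In the list of 20 other ER chaperones and cochaperones tested, edgeR called none without the block and 1 higher and 4 lower with it, and the median was -0.07. Without a block, DESeq2 called *Sdf2* and *Ppib* higher, and voom called *Ppib* higher and *Dnajb11* lower. The one called higher with the block was *Sdf2*, the constitutive paralog of *Sdf2l1* (0.29; adjusted p = 0.0551 by edgeR and 0.0135 with the block). Those that fell with the block were *Dnajb11* (ERdj3), a soluble DnaJ partner of HSPA5 (-0.28; adjusted p = 0.0078 by edgeR with the block), *Dnajc10*, *Creld2* and *Fkbp11*. *Hyou1* (GRP170), a nucleotide exchange factor of HSPA5, was at -0.16 with groups that did not overlap (edgeR adjusted p = 0.166, and 0.105 with the block). *Canx*, the membrane-bound relative of calreticulin, was at -0.17 (0.160 and 0.0871). *Ppib*, the ER cyclophilin, was at 0.16 (0.107 and 0.0815 by edgeR, but 0.00101 by DESeq2 and 0.0357 by voom), with the groups apart, from 206 to 216 CPM in DMSO and from 234 to 239 CPM in IOX5.

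Of 19 other oxidoreductases tested, *Txndc12* (ERp18), a small thioredoxin-fold protein, rose without the block, from 62.9 to 70.3 CPM in DMSO to 80.7 to 88.5 CPM in IOX5 (log2 fold change 0.32; adjusted p = 0.0396 by edgeR, and 0.0044 with the block). *Txndc12* was called by DESeq2 and voom as well, and DESeq2 also called *Txndc5* lower. With the block *Selenom* and *Qsox1* also rose, and *Txndc5* (-0.35; adjusted p = 0.00271 by edgeR with the block) and *Prdx4* fell. *P4hb*, protein disulfide isomerase and also the β-subunit of the collagen prolyl hydroxylases, was at 0.02 (SE 0.05; edgeR adjusted p = 0.895). *Ero1l*, the oxidase that recharges it and a gene known to respond to hypoxia, was at 0.20 (edgeR adjusted p = 0.204, and 0.0533 with the block). The median of the list was 0.01.

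In ER-associated degradation edgeR called none of 30 genes tested without the block, and *Os9* rose and *Ube2j2*, *Vcp* and *Nploc4* fell with it, with a median of -0.03. Without a block DESeq2 called *Os9*, *Vcp* and *Nploc4*, and voom *Nploc4*, in the same directions. *Nploc4*, a cofactor of the extracting ATPase VCP, was at -0.23 (edgeR adjusted p = 0.0590, and 0.0186 with the block), and *Vcp* itself at -0.21 (0.108 and 0.0397). *Sel1l*, the scaffold of the HRD1 ligase, was at -0.12 (SE 0.15; edgeR adjusted p = 0.702). Of 25 genes for protein entry into the ER, edgeR called none without the block, and *Srp14* rose and *Sec61a1*, *Ssr1*, *Srprb* and *Tram1* fell with it, with a median near 0 (-0.0037). Without a block DESeq2 called *Srp14*, *Sec61a1*, *Ssr1* and *Tram1*, and voom the last 3 of these, in the same directions. *Sec61a1*, the pore of the translocon, went from 484 to 517 CPM in DMSO to 402 to 444 CPM in IOX5 (-0.25; edgeR adjusted p = 0.0551, and 0.0133 with the block), whereas *Srp14* of the signal recognition particle was at 0.24 (0.0717 and 0.0239). Of 16 genes for N-glycan transfer and trimming, edgeR called none without the block and *Ost4* alone with it, as did DESeq2 without a block (0.25; adjusted p = 0.0185 by edgeR with the block), *Stt3b*, a catalytic subunit of the oligosaccharyltransferase, was at -0.15 (edgeR adjusted p = 0.175), and the median was -0.06.

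The ATF4 and CHOP list held the largest fall among the 7 lists. *Chac1*, which degrades glutathione, was at 14.3, 19.8, 18.9 and 15.8 CPM in DMSO and 7.37, 8.08, 6.41 and 6.42 CPM in IOX5 (log2 fold change -1.28 ± 0.15, SE; edgeR adjusted p = 0.0157). *Trib3*, a pseudokinase induced by ATF4 and CHOP, went from 44.1, 44.2, 54.6 and 45.6 CPM to 31.8, 32.8, 30.3 and 34.3 CPM (-0.55 ± 0.09; edgeR adjusted p = 0.0260). In both genes every IOX5 sample was below every DMSO sample, and both were also called with the block (adjusted p = 4.84e-05 and 0.00113 by edgeR). With the block, *Atf4* (-0.25; adjusted p = 0.0184 by edgeR), *Ppp1r15b* and *Asns* fell too, so 5 of 12 were lower and none higher, with a median of -0.12. Of all genes tested, 9.43% were called lower and 11.2% higher with the block. DESeq2 and voom called the same 5 without a block, against 8.79% and 8.35% of all genes in either direction. *Ddit3*, the gene of CHOP, was low, and its groups overlapped, at 10.02 to 13.2 CPM in DMSO and 9.77 to 12.5 CPM in IOX5 (-0.04; edgeR adjusted p = 0.906). Without the block *Chac1* was no longer called when DMSO replicate 3, DMSO replicate 4 or IOX5 replicate 3 was left out (adjusted p from 0.0583 to 0.0798 by edgeR). *Trib3* lost its call without any of the 4 DMSO samples or without IOX5 replicate 1 or 3 (0.0611 to 0.111), and *Txndc12* without any sample but IOX5 replicate 4 (0.0533 to 0.124). The log2 fold changes over these fits stayed between -1.36 and -1.21 for *Chac1*, between -0.58 and -0.47 for *Trib3* and between 0.29 and 0.35 for *Txndc12*. EdgeR called 0 of all genes in the fits that left out IOX5 replicate 3 or either of DMSO replicates 3 and 4.

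**Figure D5:**
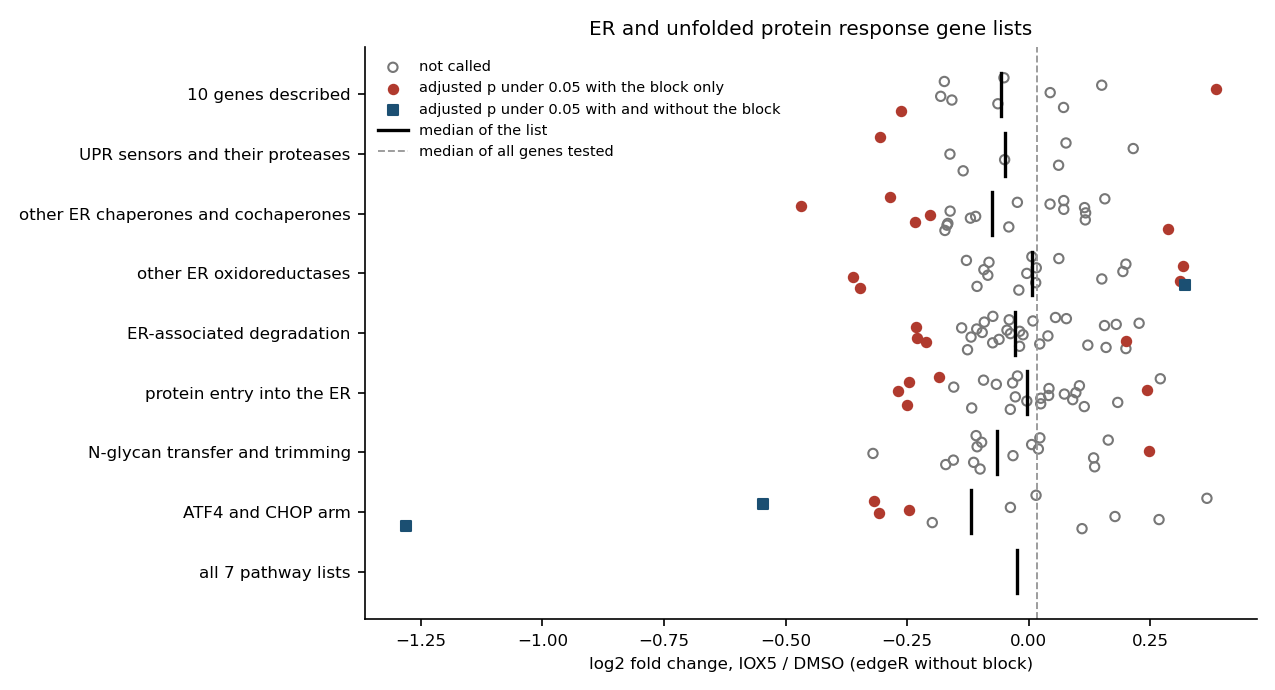
Log2 fold change of IOX5 over DMSO (edgeR without block) of every gene tested in the 10 described and in the 7 lists; open circles were not called, red points were called by edgeR with the replicate block alone and blue squares with and without it. Black bars are list medians, from -0.12 (ATF4 and CHOP arm) to 0.01 (other ER oxidoreductases), and the dashed line is the median of all genes, 0.02.

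The genes that carry an exact ERSE in the promoter window numbered 37 by symbol, and 10 of them were among the 10 genes described or the 7 lists, the others there being *Canx*, *Creld2*, *Dnajc3*, *Derl3*, *Syvn1* and *Ero1lb*. Of 15 tested, 10 were lower and 5 higher with IOX5, the median log2 fold change was -0.13, and none was called by edgeR without the block. With the block *Creld2* fell and *Adcy3*, an adenylyl cyclase outside the lists, rose, against 9.43% of all genes called lower and 11.2% called higher. These 2 genes were named after their values had been seen. Of the 9 tested in the pathway, *Creld2* was the lowest (-0.23) and *Calr* the highest (0.07), with *Hsp90b1*, *Hspa5*, *Dnajc3* and *Canx* between -0.18 and -0.17, *Ero1lb* at -0.13, *Pdia6* at -0.05 and *Syvn1* at 0.02.

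Over the 8 samples, the mean profile of the 10 genes was nearly flat, from -0.06 (IOX5 replicate 2) to 0.05 (DMSO replicate 2) in log2 CPM relative to the DMSO mean. It averages genes with opposite log2 fold changes, among them *Dnajb9* (0.39) and *Herpud1* (-0.26), and does not describe single genes. Among 8915 other genes with a mean of at least 10 CPM, the 5 with the smallest root mean square difference from this mean profile over the 8 samples were *Cisd2* (0.017), *Ik* (0.022), *Dera* (0.031), *Rexo4* (0.031) and *Azin1* (0.032). Their log2 fold changes lay between -0.03 and -0.01 with none called, which follows from their choice by closeness to a nearly flat profile.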

How the data were processed

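RNA was sequenced from 8 samples, 4 with DMSO and 4 with IOX5, grouped by their labels. Per the study's methods, the authors prepared directional libraries from poly(A) RNA, trimmed the single-end reads with cutadapt 1.18, mapped them to GRCm38 with HISAT2 2.2.1 and counted them with HTSeq 2.0.1. The deposited values are raw counts per Ensembl gene. The annotation release and the strand option of HTSeq are not given in the sources used here. The 5 summary lines per file, between 20.7% and 22.6% of the counts, were left out. Gene reads ran from 11351507 to 14116054 per sample, and *Dnajb9*, the lowest of the 10 genes, had 2779 reads in all 8 samples. Of 54838 genes, 54809 matched GENCODE M21. *Ddit3* matched 2 identifiers, and the one with more reads was used.

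IOX5 was compared with DMSO over all 12405 genes kept by filterByExpr, with TMM factors and edgeR 4.0.16 (quasi-likelihood, no block, Benjamini-Hochberg adjusted p under 0.05, R 4.3.3). Intervals are 95%. Log2 CPM used a prior count of 2. Correlations of deviations from the group means between DMSO and IOX5 samples of the same number were 0.758, 0.744, 0.732 and 0.636 over genes. Numbers 1 and 2 thus pair the samples, but numbers 3 and 4 were not told apart. DMSO replicate 4 correlated more with IOX5 replicate 3 (0.685) than with IOX5 replicate 4, and DMSO replicate 3 with IOX5 replicate 4 gave 0.617. The pairing comes from the data, since the labels give no meaning to the numbers. A fit with the replicate block is therefore printed beside the first. Other alternatives were DESeq2 1.42.0, limma 3.58.1 voom with sample weights, other scalings and filters, and samples left out. The steps were tested on simulated data. Replicate libraries differed by more than sampling noise (chi-square per degree of freedom of 2.17 between DMSO replicates 3 and 4 and 14.3 to 22.8 between the other DMSO pairs, and of 9.28 between IOX5 replicates 3 and 4 and 18.5 to 41.1 between the others).

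Named are the 10 genes, and in each of 7 lists the 2 genes with the smallest p, every gene called, and *Ern1*, *Eif2ak3*, *Atf6*, *Atf4*, *Ddit3*, *Hyou1*, *Dnajb11*, *Canx*, *P4hb*, *Ero1l* and *Sel1l*; genes called with the block are named where counted. The genes and lists were chosen with earlier results of these data known, and 1 listed gene is not reported here. Promoter sequences are from RefSeq (GRCm38.p6).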

Additional observations from a re-analysis of the deposited data

Results flagged for a closer look

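A single sample stood apart from the other 3 of its group by Dixon's test in 9 of 68 groups examined (the 10 genes and the other named genes, in DMSO and in IOX5), where chance gives about 5%. In *Hsp90b1*, DMSO replicate 1 was low at 1492 CPM, and in *Sdf2l1*, DMSO replicate 2 was high at 294 CPM. DMSO replicate 2 was also the sample apart in *Dnajb11* (312 CPM, high) and *Sec61a1* (484 CPM, low), and DMSO replicate 1 in *Canx* (1217 CPM, low) and *Atf4* (496 CPM, low). In IOX5, replicate 4 was high in *Atf4* (506 CPM), and without it the fall of *Atf4* was called by edgeR without the block (-0.31; adjusted p = 0.0330). *Eif2ak3* was low in DMSO replicate 4 (38.8 CPM) and *Trib3* high in DMSO replicate 3 (54.6 CPM). The source of these differences was not tested.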

How the results depend on the processing

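Without the block, none of the 10 genes was called by edgeR under RLE or upper-quartile factors, either change of filter or any of the 8 fits without 1 sample (0 to 0). With the replicate block, with DESeq2, with the replicate block in DESeq2 and with voom, 1 gene was called in each direction, 1 higher and 1 lower. With a limit of 0.1 on the adjusted p and no block, 1 was called higher. In the fits with the block but without number 1, 1 was higher, and without number 2 or number 4, 1 was higher and 1 lower. The share of all genes called in these fits was not counted. The block changed no other call among the 10. Their median log2 fold change, -0.06, was between -0.11 and -0.03 without single samples. Over all genes, edgeR called 96 higher and 155 lower. With the block these counts were 1394 and 1170, with DESeq2 489 and 602, with voom 426 and 610, and 73 were lower with no filter. Without single samples they ran from 0 to 128 higher and from 0 to 338 lower. *Pdia4* turned to -0.00085 with the block without number 3, *Ddit3* ran from -0.11 to 0.04 (0.0064, 0.037 and 0.032 without DMSO replicate 3, DMSO replicate 4 and IOX5 replicate 1) and *Ern1* from -0.02 to 0.14 (-0.020 and -0.012 without DMSO replicate 2 and IOX5 replicate 3) without single samples, none of them called. For the fold changes of the 10 genes, 195 of the values under the alternatives kept direction and side of the threshold, 14 passed it and 1 changed sign, as just given. Mean CPM kept within 1 SD under RLE, upper-quartile and no factors (60 values). The causes were not tested. At 4 samples per group and this spread, differences as small as those of the disulfide isomerases were not detectable, and the depth leaves *Dnajb9*, *Chac1* and *Ddit3* with the fewest reads.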

Other observations

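Within a sample, the ratio of one gene to another does not depend on library scaling. The pairs below were chosen after their values had been seen, and levels are compared per kb of exon. *Herpud1* over *Dnajb9*, both products of the unfolded protein response, was 5.01, 6.39, 4.99 and 4.76 in DMSO replicates 1 to 4 and 3.14, 4.01, 2.82 and 3.60 in the IOX5 replicates. Each IOX5 sample lay below each DMSO sample. This order was fixed by the genes themselves, whose groups were already apart in opposite directions, and is no added result. *Calr* over *Canx*, the soluble and the membrane-bound lectin chaperone, was 4.05, 3.19, 3.57 and 3.66 in DMSO and 4.80, 3.67, 4.19 and 4.37 in IOX5. The groups overlapped, but within numbers the log2 ratio was higher with IOX5 by 0.24, 0.20, 0.23 and 0.25, although neither gene was called.

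*Sdf2* over its paralog *Sdf2l1* was 0.164, 0.119, 0.171 and 0.176 in DMSO and 0.219, 0.210, 0.214 and 0.201 in IOX5, with the groups apart and DMSO replicate 2 the lowest. *Hspa5* over *Hsp90b1* moved little, at 1.04 ± 0.0564 (SD, n = 4) in DMSO and 1.05 ± 0.0444 in IOX5, with differences within numbers between -0.02 and 0.03 on the log2 scale.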
